A study of Mus musculus with 36 samples.

Results

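The comparison described here is that of the transcriptomes of Pax5-/- pro-B cells given Pax5 with arginine in place of lysine K198 (K198R), a mimic of the deacetylated protein, or with glutamine in its place (K198Q), a mimic of the acetylated protein. It covers 12909 genes out of 35896 rows of the table, those with 10 or more normalized counts in 2 or more of the 4 libraries concerned. Of all rows, 16921 were at 0 in each of these 4 libraries. The 4 libraries, 2 for K198R and 2 for K198Q, belong to a series of 36 mouse samples made to study how the deacetylase SIRT7 acts on Pax5 in B cell development. Groups of 2 libraries each from the same table served as reference, Pax5-/- cells with the empty vector (EV) and with unmutated Pax5 (Pax5WT). All 4 groups were Lin-B220+IgM- progenitors lacking endogenous Pax5, which the labels describe as primary bone marrow pro-B cells and the methods as obtained from fetal livers. They grew on OP9 stromal feeder cells with IL-7, SCF and FLT3-L, were transduced with a retrovirus (pMIG backbone) that also carries human CD4 as a marker, and were sorted as human CD4-positive before polyadenylated RNA was sequenced. The groups were thus cultured populations, and where a form of Pax5 was given it was expressed from the retroviral vector. The labels do not say whether the libraries of a group came from separate animals, so that the p-values measure only the spread between these libraries. The normalized counts summed to 28865461 and 29217709 for the K198Q libraries and to 29329369 and 30520853 for the K198R libraries.

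Pax5 is a paired-domain transcription factor that commits progenitors to the B lineage. It activates genes of the pre-B cell receptor and its signalling chain, such as Cd79a and Blnk, and represses genes that belong to T cells, NK cells and myeloid cells. Progenitors without Pax5 stop at an early pro-B stage, keep expressing genes of several lineages and can give rise to other blood cells. Lysine acetylation removes the positive charge of the side chain, which glutamine copies, whereas arginine keeps the charge and cannot be acetylated.

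The Pax5 transcript itself differed between the groups. It stood at 2201 and 2103 normalized counts with EV, 6458 and 6152 with Pax5WT, 8918 and 8963 with K198Q and 21162 and 16609.5 with K198R. Both K198R libraries lay above both K198Q libraries (log2 fold change 1.07 ± 0.12 (SE), adjusted p = 0.00529 with limma), a 2.1-fold difference, which is below the minimum log2 fold change of 1.5 used for a call. Leaving out single libraries gave log2 values between 0.89 and 1.24, and without K198Q replicate 2 the adjusted p no longer passed 0.05. The form of Pax5 and the amount of its transcript therefore changed together, and their parts in every difference given here cannot be told apart. The table gives 1 value per gene and does not separate transcript of the vector from that of the disrupted locus (chr4:44524757-44710487, GRCm38, minus strand). Sirt7 was at 2098 and 1817 normalized counts with K198Q and 1937 and 1645 with K198R and was not called.

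A gene was called where its adjusted p was under 0.05 and its absolute log2 fold change at least 1.5. By this rule 62 genes were higher with K198R, 0.48% of those tested, and 270 were lower, 2.09%, together 332 or 2.57%. On the adjusted p alone, 195 genes were higher (1.51%) and 475 lower (3.68%). With the replicate number as a block in the fit, which leaves the log2 fold changes as they are, all 332 remained called and the counts were 94 higher (0.728%) and 397 lower (3.08%), or 655 (5.07%) and 1092 (8.46%) on the adjusted p alone. Where this fit changes the call of a gene or list described here, its value is given as that of the blocked fit. Changes at the adjusted p alone are given for some lists and in total. The median log2 fold change of all genes was 0.02. The libraries of the 332 called genes did not overlap between the groups, a property shared by 2801 genes higher with K198R (21.7%) and 2783 lower (21.6%). Called genes were of modest abundance, with a median in the higher group of 259 normalized counts for those higher and 136 for those lower, against 900.1 over all genes tested.

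The counts depended on single libraries. A fit without 1 library leaves its group with a single one, which is then assumed to vary like those of the other groups. Without K198Q replicate 2 the calls fell to 14 higher and 11 lower, and without K198Q replicate 1 to 24 and 50. Without K198R replicate 1 there were 51 and 448, and without K198R replicate 2 there were 50 and 138. The sign of a gene whose groups do not overlap cannot turn when 1 library is left out. Without K198Q replicate 2, 56 of the 62 and 254 of the 270 stayed past the fold threshold. Of the 45 called genes that the rule names, 9 stayed called in that fit (Blnk, Cd7, Col5a2, Ighg2b, Ikzf3, Mfsd4b4, Siglecg, Tbc1d9 and Tmem255a), 22 without K198Q replicate 1, 41 without K198R replicate 1 and 35 without K198R replicate 2. The size of some falls rested on which K198R library was used. Without K198R replicate 1 and without K198R replicate 2 in turn, the log2 fold change was -6.64 and -3.36 for Igkc, -4.29 and -2.05 for Tox, -4.00 and -2.20 for H2-Q7, -3.94 and -2.51 for Gcsam, -3.82 and -2.40 for Pogk, -3.68 and -2.35 for Klhl30, -3.15 and -1.85 for Tyrobp and -2.62 and -1.44 for Fcer1g. Each of these genes was lower in K198R replicate 2. For Cr2 the value was 2.05 without K198Q replicate 1 and 4.18 without K198Q replicate 2. The split between directions also depended on scaling, with 87 higher and 207 lower after quantile normalization. The mean-difference plot shows the excess of called genes below 0.

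**Figure D1:**
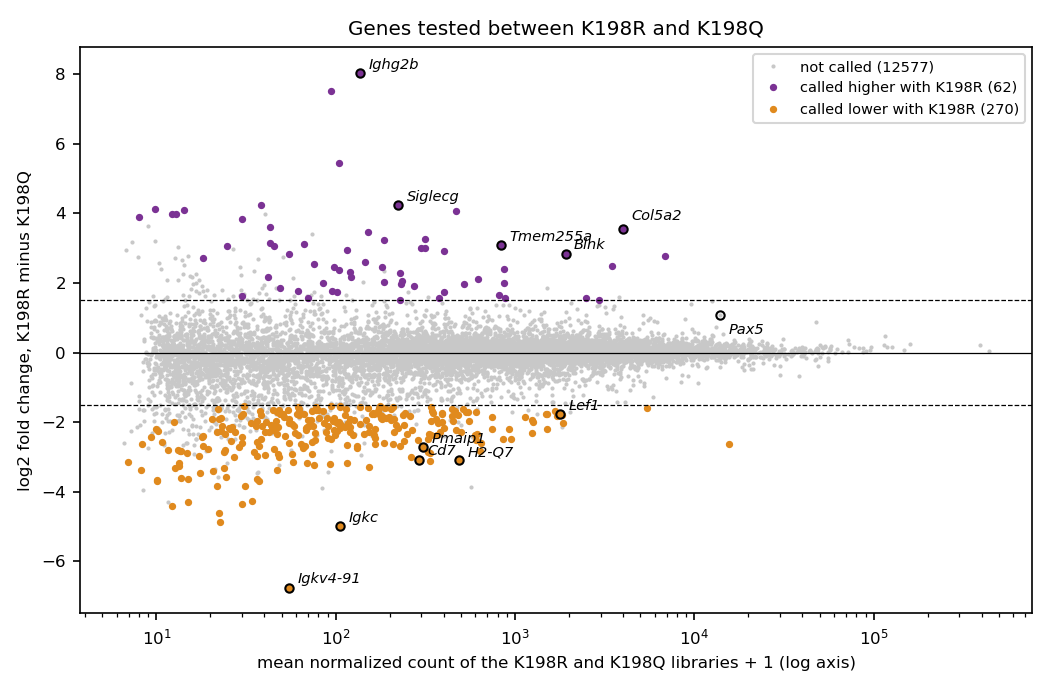
Log2 fold change of K198R minus K198Q (y axis) against the mean normalized count of the 4 libraries plus 1 (x axis, log scale) for the 12909 genes tested. Purple points are the 62 genes called higher with K198R, orange points the 270 called lower and grey points the rest, and dashed lines mark 1.5 and -1.5. Most orange points lie at low to middle counts, and Pax5 sits below the upper line.

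Genes of the pre-B cell receptor and its signalling were among those higher with K198R. Blnk, the adaptor that links SYK to downstream enzymes (chr19:40928927-40994535, GRCm38), was at 2.56 and 4.9 with EV, 915 and 954 with Pax5WT, 547 and 397 with K198Q and 3586 and 3133 with K198R (log2 fold change 2.84 ± 0.27 (SE), adjusted p = 0.00362). K198Q thus lay between EV and Pax5WT while K198R exceeded Pax5WT. Bank1, a scaffold protein of B cell receptor signalling, was at 87.5 and 65.7 with K198Q and 408 and 347 with K198R (log2 fold change 2.30 ± 0.42 (SE), adjusted p = 0.0236), but here Pax5WT, at 75.8 and 70.5, did not exceed EV, at 203 and 76.4. In the list for pre-BCR and BCR signalling, 3 of 21 tested were called higher, these included, and 0 lower. The list's median log2 fold change was 0.14, against 0.02 over all genes, and ranged from 0.04 to 0.35 with single libraries left out.

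Other members of that list passed the adjusted p without reaching the fold threshold, 6 higher and 1 lower. Cd79a, a signalling chain of the receptor, was at 5321 and 5140.4 with K198Q and 13596 and 14080.5 with K198R (log2 fold change 1.40 ± 0.11 (SE), adjusted p = 0.00277). Its partner Cd79b was at 4913 and 5201 with K198Q and 7224 and 7693 with K198R (log2 fold change 0.56, adjusted p = 0.02). The others were the inhibitory coreceptor Cd22 (0.97), the kinases Btk (0.59) and Fyn (0.53) and the phosphoinositide 3-kinase subunit Pik3cd (0.40), all as log2 fold changes. Cd72, an inhibitory coreceptor, went the other way, at 412 and 341 with K198Q and 197 and 141 with K198R (log2 fold change -1.16, adjusted p = 0.022). The kinases Syk (-0.22), Lyn (-0.10) and Blk (-0.10) did not pass.

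None of the 4 surrogate light chain genes was called. Vpreb3, at 3471 and 3158 with K198Q and 7165 and 6959 with K198R, passed the adjusted p alone (log2 fold change 1.09, adjusted p = 0.00592). Igll1, which encodes the lambda 5 chain, was at 21101 and 20814 with K198Q and 25624 and 27194 with K198R, with a 95% confidence interval, not adjusted for the number of genes, of 0.00 to 0.66 for its log2 fold change. Among 9 genes of V(D)J recombination and end joining, 0 were called and the recombinase genes passed the adjusted p. Rag1 was at 1443 and 2289 with EV, 8938 and 8704 with Pax5WT, 7229.8 and 5909 with K198Q and 18291 and 18398 with K198R (log2 fold change 1.49, just under the threshold, adjusted p = 0.00856). Rag2 was at 638 and 535 with K198Q and 1405 and 1413 with K198R (log2 fold change 1.27, adjusted p = 0.0182). The medians were 0.32 for the surrogate light chain and 0.05 for the recombination list, and Dntt, which encodes terminal transferase, was below the filter.

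Transcription factors of the B lineage moved in both directions, 1 called higher and 2 lower of 23 tested, with a median of 0.34. Ikzf3, which encodes Aiolos, a factor that rises as pro-B cells become pre-B cells, was at 123 and 127 with EV, 627 and 639 with Pax5WT, 364 and 420.1 with K198Q and 1272 and 1201 with K198R (log2 fold change 1.66 ± 0.14 (SE), adjusted p = 0.00315). Lef1, a partner of beta-catenin found in early B and T cells (chr3:131110471-131224356), was at 1092 and 830.2 with EV, 3114 and 3196 with Pax5WT, 3038 and 2429.5 with K198Q and 1042 and 611 with K198R (log2 fold change -1.77 ± 0.25 (SE), adjusted p = 0.01). For Lef1 the K198Q libraries were near Pax5WT and the K198R libraries near EV. Klf2, a factor tied to lymphocyte quiescence and trafficking, was at 175 and 284 with K198Q and 76.7 and 69 with K198R (log2 fold change -1.60 ± 0.28 (SE), adjusted p = 0.0215). Past the adjusted p alone were Foxo1 (0.80), which drives Rag expression, Bcl11a (1.31), needed for early B cells, Bach2 (0.60) and Erg (0.56), all higher. Ebf1, the factor that acts upstream of Pax5, was at 5545 and 6135 with K198Q and 6726 and 7875 with K198R and did not pass (interval 0.04 to 0.60), though it did in the blocked fit (adjusted p = 0.0125). In the blocked fit 11 factors of the list were past the adjusted p higher and 4 lower, against 5 and 2 without the block.

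The genes with the largest rises included surface molecules of B cells. Siglecg, a sialic acid-binding inhibitory receptor of B cells, was at 23.7 and 32 with EV, 25.3 and 19.6 with Pax5WT, 21.7 and 20.8 with K198Q and 453 and 394 with K198R (log2 fold change 4.25 ± 0.30 (SE), adjusted p = 0.0019), so that EV, Pax5WT and K198Q lay together and K198R alone was high. Cr2, the complement receptor CD21, was at 5.37 and 27 with K198Q and 104 and 127 with K198R (log2 fold change 3.12 ± 0.70 (SE), adjusted p = 0.0472), and its call was lost whichever of the 8 libraries was left out. Cd55, which protects cells from complement, was listed at 0 in both EV libraries and at 34.4 and 52.4 with Pax5WT, 28.3 and 22.8 with K198Q and 176 and 231 with K198R (log2 fold change 2.94 ± 0.39 (SE), adjusted p = 0.00856). Cd55 belongs to the list for homing and adhesion, in which 2 of 15 were called higher and the median was -0.04. In that list the follicular homing receptor Cxcr5 passed the adjusted p in the other direction, at 952 and 1063 with K198Q and 567 and 406 with K198R (log2 fold change -1.07, adjusted p = 0.0149). With the block, 3 of the 15 were past the adjusted p higher and 4 lower, against 2 and 1 without it.

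The remaining large rises were of genes with other roles. Col5a2, a fibrillar collagen chain, was at 459 and 452 with EV, 1057 and 929 with Pax5WT, 693 and 562 with K198Q and 7463 and 7259.5 with K198R (log2 fold change 3.56 ± 0.13 (SE), adjusted p = 7.69e-05). Rnase12, a member of the ribonuclease A family, was at 6.73 and 15.5 with EV, 141 and 204 with Pax5WT, 54.7 and 46.2 with K198Q and 709 and 1064 with K198R (log2 fold change 4.08 ± 0.41 (SE), adjusted p = 0.00378). Tmem255a, a membrane protein, was at 26.6 and 30.6 with EV, 344 and 352 with Pax5WT, 175 and 170.0 with K198Q and 1349 and 1621 with K198R (log2 fold change 3.09 ± 0.18 (SE), adjusted p = 0.00122). In Col5a2, Rnase12 and Tmem255a the order of the groups was EV, K198Q, Pax5WT and K198R, with no overlap between neighbours. The next 4 genes had the same order. Mtcl1, a microtubule crosslinker, was at 23.8 and 24.3 with K198Q and 242 and 315 with K198R (log2 fold change 3.47). Bfsp2, a filament gene of the lens, was at 84.4 and 48.3 with K198Q and 443 and 616 with K198R (log2 fold change 3.01). Bcar3, a signalling adaptor, was at 70.5 and 45.7 with K198Q and 730.1 and 414 with K198R (log2 fold change 3.25). Tbc1d9, which has a Rab GTPase-activating domain, was at 80.2 and 57.4 with K198Q and 497 and 613 with K198R (log2 fold change 3.01). Pgf, placental growth factor, was at 46 and 22.8 with K198Q and 458 and 214 with K198R (3.24), and Pax5WT overlapped K198Q there. The plot of single libraries shows these genes beside the falls.

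**Figure D2:**
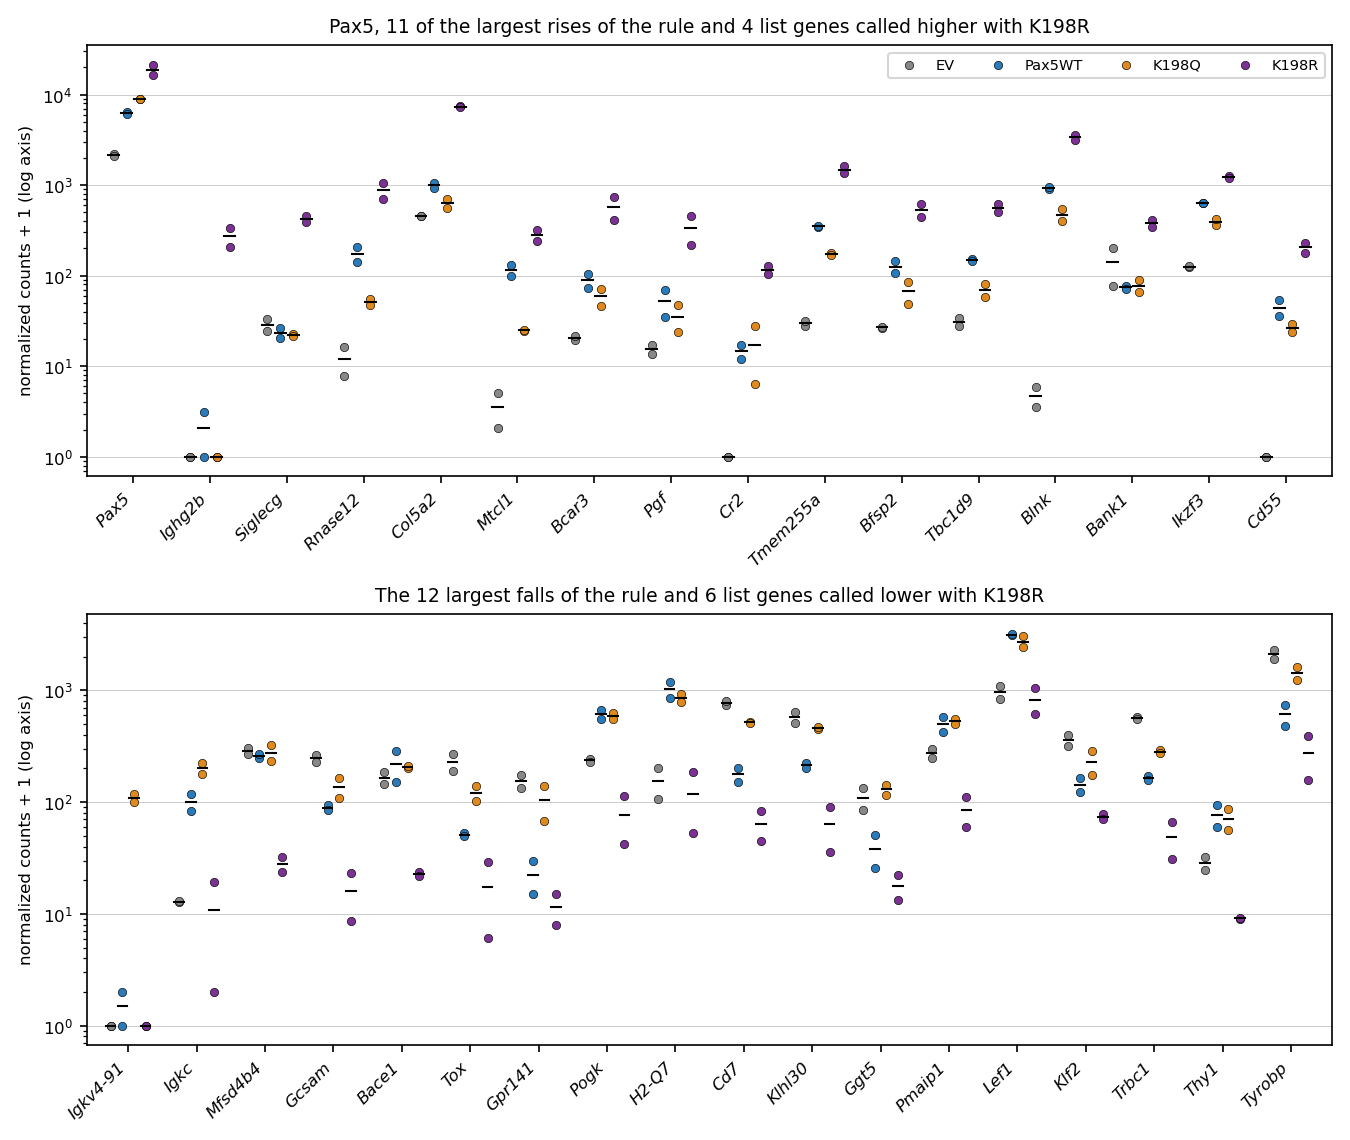
Normalized count plus 1 (y axis, log scale) of each library for Pax5, the largest rises and falls and list genes called, with points for EV (grey), Pax5WT (blue), K198Q (orange) and K198R (purple) and bars at the group means, n = 2. In the upper panel the K198R points are highest for each gene, and in the lower panel they are below the K198Q points for each gene.

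Immunoglobulin transcripts gave the largest change in each direction. Ighg2b, a heavy chain constant region gene at chr12:113302965-113307933 (GRCm38), was at 0 in both EV and both K198Q libraries, at 2.15 and 0 with Pax5WT and at 337 and 205 with K198R. Set against a floor of 3 counts per library, it was at least 90.5-fold higher with K198R than with K198Q. Igkv4-91, a kappa variable gene at chr6:68768555-68769103, was at 116 and 99.3 with K198Q and at 0 in both K198R libraries, at least 35.9-fold lower by the same floor. Igkc, the kappa constant region, was at 11.8 and 11.9 with EV, 81.8 and 116 with Pax5WT, 225 and 177 with K198Q and 18.5 and 1 with K198R (log2 fold change -5.00 ± 0.90 (SE), adjusted p = 0.0223). Both K198Q libraries thus held more kappa transcript than both K198R libraries, and the clonal makeup of the cultures was not tested. Variable genes and constant regions resemble each other, so that reads may be split between copies.

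The other large falls held genes of T cells, innate cells and signalling. Cd7, an antigen of T and NK cells and of early progenitors (chr11:121036747-121039418), was at 735 and 796 with EV, 203 and 149.8 with Pax5WT, 523 and 510.3 with K198Q and 82 and 44.4 with K198R (log2 fold change -3.08 ± 0.29 (SE), adjusted p = 0.00362). Tox, a nuclear factor of T cell and innate lymphoid development, was at 267 and 191 with EV, 51.6 and 48.8 with Pax5WT, 137 and 102 with K198Q and 27.8 and 5.11 with K198R (log2 fold change -3.17 ± 0.64 (SE), adjusted p = 0.0322). Gpr141, an orphan receptor, was at 132 and 172 with EV, 28.7 and 14 with Pax5WT, 67.1 and 139 with K198Q and 14.2 and 6.99 with K198R (log2 fold change -3.15 ± 0.52 (SE), adjusted p = 0.017). In Cd7 and Tox, K198Q lay between EV and Pax5WT, and K198R was below Pax5WT. Gcsam, a signalling adaptor of germinal centre B cells, Klhl30, a kelch-like protein, and Ggt5, an enzyme of leukotriene and glutathione metabolism, showed K198Q above Pax5WT as well. Gcsam was at 162 and 107 with K198Q and 22.3 and 7.66 with K198R (log2 fold change -3.22), Klhl30 at 451 and 472 with K198Q and 90 and 35.1 with K198R (-3.01) and Ggt5 at 143 and 115 with K198Q and 21.2 and 12.2 with K198R (-2.91).

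A different order was seen for other genes among the falls. H2-Q7, a nonclassical MHC class I gene, was at 201 and 107 with EV, 846 and 1195 with Pax5WT, 790.0 and 921 with K198Q and 185 and 52.4 with K198R (log2 fold change -3.10 ± 0.55 (SE), adjusted p = 0.0215). Pogk, a KRAB domain protein derived from a transposase, was at 241 and 229.7 with EV, 550.0 and 669.6 with Pax5WT, 624 and 559 with K198Q and 111 and 40.9 with K198R (log2 fold change -3.11 ± 0.40 (SE), adjusted p = 0.00783). In both, Pax5WT and K198Q were high and EV and K198R low. Mfsd4b4, a transporter of the major facilitator family, was at 305 and 271 with EV, 245 and 271 with Pax5WT, 321 and 231 with K198Q and 31.6 and 22.9 with K198R (log2 fold change -3.29 ± 0.25 (SE), adjusted p = 0.00247). Bace1, the beta-secretase, was at 143 and 184 with EV, 151 and 283 with Pax5WT, 202 and 209 with K198Q and 22.5 and 21 with K198R (log2 fold change -3.19 ± 0.32 (SE), adjusted p = 0.00378). For Mfsd4b4 and Bace1 the EV, Pax5WT and K198Q libraries lay together and K198R alone was low. H2-Q7 and Mfsd4b4 belong to families of close copies, and their reads may be split between members.

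In the list for the T lineage and Notch signalling, 5 of 18 genes tested were called lower with K198R and 0 higher (7 more of the 25 listed were below the filter), with a median of -0.87. Leaving out single libraries moved this median between -1.21 and -0.56. Trbc1, a T cell receptor beta constant region, was at 572 and 551 with EV, 169 and 156 with Pax5WT, 289 and 273 with K198Q and 65.8 and 30.2 with K198R (log2 fold change -2.63 ± 0.33 (SE), adjusted p = 0.00751). Thy1, a surface glycoprotein of T cells and early lymphocytes, was at 23.8 and 31.5 with EV, 59 and 92.5 with Pax5WT, 55.3 and 85.4 with K198Q and 8.09 and 8.15 with K198R (log2 fold change -2.94 ± 0.38 (SE), adjusted p = 0.00815). Cd27, a costimulatory receptor, was at 487 and 546 with EV, 173 and 168 with Pax5WT, 249 and 224 with K198Q and 58.6 and 35.2 with K198R (log2 fold change -2.35 ± 0.26 (SE), adjusted p = 0.00529). Cd2, an adhesion receptor of T and NK cells, was at 179.6 and 207 with K198Q and 56.9 and 32.7 with K198R (-2.13), and Cd3g, a chain of the T cell receptor complex, at 10.1 and 16.5 with K198Q and 1.03 and 1.47 with K198R (-2.64). Past the adjusted p alone were Notch1 (-0.85), Tcf7 (-1.41) and Cd247 (-0.59). The receptor Notch3 (-0.12) and the Notch target genes Hes1 (0.13) and Dtx1 (-0.37) did not pass, with or without the block. With the block, 10 of the 18 were past the adjusted p lower, against 8 without it. Notch1, the most abundant gene of the list, was at 10019.5 and 11693 with K198Q and 6697 and 5393 with K198R. The summed level of the list was 22531 and 23376 with EV, 15603 and 16749.9 with Pax5WT, 18762 and 20269 with K198Q and 13349 and 11698 with K198R. Defining T cell genes were close to absent in the 4 libraries compared: Cd3e was at 0 and 0 with K198Q and 1 and 0 with K198R, and Cd3d, Cd4, Cd8a, Bcl11b, Ptcra and Trbc2 were below the filter. In bulk libraries, fewer cells of a type and less RNA per cell cannot be told apart.

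NK cell and cytotoxic genes were lower in 4 of 8 tested and higher in 0 (7 of the 15 listed were below the filter), with a median of -1.84, or -2.46 without K198R replicate 1 and -1.32 without K198R replicate 2. In the blocked fit 6 of the 8 were called lower, with Klrd1 (adjusted p = 0.00207), a lectin-like receptor chain, and Ctsw (adjusted p = 0.00283), cathepsin W, added. Tyrobp and Fcer1g encode signalling adaptors shared by NK and myeloid cells. Tyrobp was at 2299 and 1897 with EV, 742 and 479 with Pax5WT, 1615 and 1238 with K198Q and 392 and 158 with K198R (log2 fold change -2.50 ± 0.40 (SE), adjusted p = 0.0153), and Fcer1g, the most abundant gene of the list, at 3932 and 3998 with EV, 2093 and 1927 with Pax5WT, 3127 and 2699 with K198Q and 1068 and 473 with K198R (log2 fold change -2.03 ± 0.32 (SE), adjusted p = 0.0136). Nkg7, a granule membrane protein, was at 260.3 and 303 with K198Q and 109 and 77.7 with K198R (-1.60), and Gzma, granzyme A, at 21.5 and 24.5 with K198Q and 2.61 and 2.08 with K198R (-2.85). The order of the groups in Tyrobp and Fcer1g was EV, K198Q, Pax5WT and K198R from high to low. The list summed to 7895 and 7384 with EV, 3471 and 2908 with Pax5WT, 5826 and 4823 with K198Q and 2034 and 846 with K198R. Gzmb, which encodes the cytotoxic granzyme B, and Ncr1, a receptor of NK cells, were at 0 in all 8 libraries, and Tbx21 and Eomes were at 0 in the 4 compared.

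Myeloid genes were lower in 2 of 10 tested and higher in 0 (6 of the 16 listed were below the filter), with a median of -1.05. The granule genes Mpo and Prtn3 were the members called, joined in the blocked fit by Csf1r, the receptor for macrophage colony-stimulating factor (-2.48, adjusted p = 0.0153). Mpo was at 189 and 97.7 with EV, 30.1 and 44.2 with Pax5WT, 73.3 and 95 with K198Q and 13.1 and 7 with K198R (log2 fold change -2.99 ± 0.45 (SE), adjusted p = 0.0118), and Prtn3 at 161 and 193 with EV, 129 and 113 with Pax5WT, 192 and 206 with K198Q and 41.8 and 38 with K198R (log2 fold change -2.29 ± 0.22 (SE), adjusted p = 0.00362). Cebpb, a myeloid factor, passed the adjusted p alone (-1.49), whereas Lyz2, lysozyme, was at 90.6 and 103 with K198Q and 218 and 192 with K198R and did not pass (adjusted p = 0.0604, or 0.0271 in the blocked fit). Csf2rb, the most abundant member, was at 4480.3 and 4097 with K198Q and 4347 and 3863 with K198R (-0.06) and carried most of the list's sum, which was 6669.7 and 6346 with K198Q and 5879.7 and 5083 with K198R. Elane was at 0.98 and 0 with K198Q and 0 and 0 with K198R, and S100a8 and S100a9 at 0 in these 4 libraries. The plot by list shows that the T, NK and myeloid medians lie furthest below 0 among the pathway lists.

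**Figure D3:**
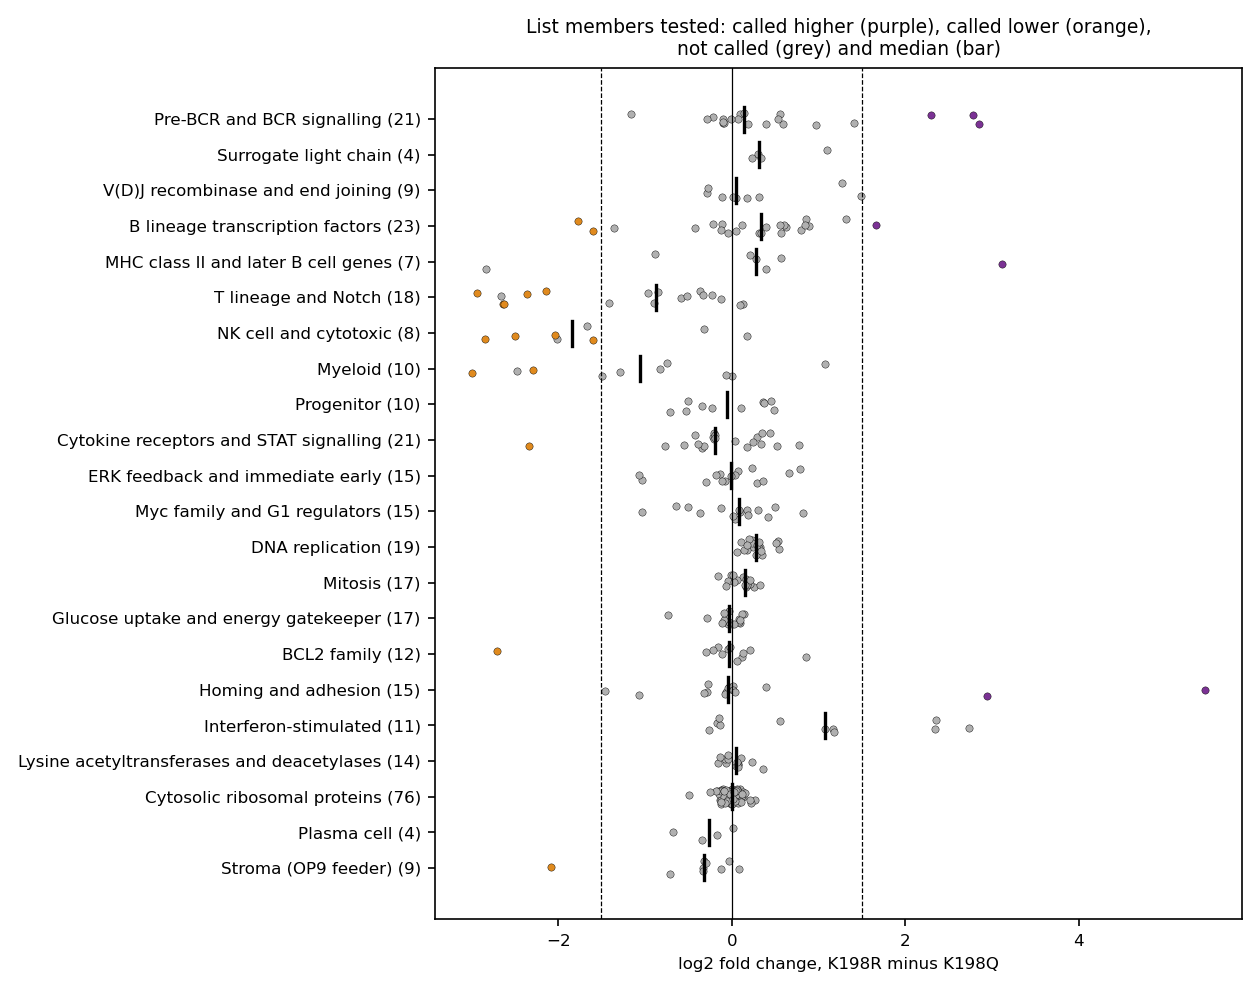
Log2 fold change of K198R minus K198Q (x axis) of each tested member of the gene lists (rows, number tested in brackets), with members called higher in purple, called lower in orange, not called in grey and a bar at the median. Dashed lines mark 1.5 and -1.5. The orange points gather in the T, NK and myeloid rows, and the ribosomal and replication rows are tight.

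Receptors and survival genes gave single calls. Il2rb, a receptor chain shared by IL-2 and IL-15, was at 955 and 914 with EV, 229.7 and 240.2 with Pax5WT, 567 and 524 with K198Q and 144 and 80.4 with K198R (log2 fold change -2.33 ± 0.25 (SE), adjusted p = 0.00529), the member called among 21 cytokine receptor and STAT genes (median -0.20). Il7r, the receptor for the IL-7 in the medium, was at 1286 and 1293 with EV, 3614 and 3058 with Pax5WT, 3758 and 2796 with K198Q and 2019 and 1799.6 with K198R and passed the adjusted p alone (log2 fold change -0.77, adjusted p = 0.0322). Both K198R libraries were below both K198Q libraries for Il7r and above both EV libraries. With the block, 3 of the 21 genes were past the adjusted p higher and 6 lower, against 0 and 2 without it. Pmaip1, which encodes the pro-apoptotic NOXA, was at 298 and 245 with EV, 426 and 573 with Pax5WT, 554 and 504 with K198Q and 109 and 58.5 with K198R (log2 fold change -2.71 ± 0.30 (SE), adjusted p = 0.00556), the member called among 12 of the BCL2 family (median -0.03). Bcl2l1, which encodes the anti-apoptotic BCL-XL, passed the adjusted p alone, at 415 and 346 with K198Q and 704 and 669 with K198R (log2 fold change 0.86, adjusted p = 0.0333). Bcl2 (0.12), Mcl1 (0.13) and Bcl2l11 (-0.22), which encodes BIM, did not pass.

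Proliferation and energy genes were not called. The medians were 0.28 for 19 DNA replication genes, 0.15 for 17 mitotic genes, 0.08 for 15 Myc family and G1 genes and -0.03 for 17 genes of glucose uptake and energy supply, with 0 called in each. With single libraries left out the medians ranged from 0.04 to 0.49 for DNA replication and from -0.30 to 0.56 for mitosis. The range was 0.08 to 0.20 for the Myc and G1 list and -0.20 to 0.18 for the glucose list. In the blocked fit 8 of the DNA replication genes, among them Mcm2 (0.33), Pcna (0.31) and Rrm2 (0.54), passed the adjusted p higher with K198R, against 0 without the block, and 0 were called. Of the Myc and G1 genes 3 then passed it higher and 3 lower, against 0, of the glucose list 2 lower and of the mitotic genes 0. The replicates differed more than the groups in some of these. The mitotic list summed to 74109 and 96319 with K198Q and 70614 and 125584 with K198R, and the glucose list to 168328 and 263956 and 143084 and 318102, in each case with replicate 2 above replicate 1. The mitotic median was -0.16 between the libraries numbered 1 and 0.38 between those numbered 2. Myc itself was at 19758 and 13889 with K198Q and 21449.8 and 13444 with K198R (interval -0.58 to 0.65), and Ccnd2, cyclin D2, at 19376 and 17130.2 with K198Q and 21318 and 17859 with K198R (interval -0.21 to 0.40).

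Several further lists had 0 calls: 76 cytosolic ribosomal protein genes with a median of 0.01, 14 lysine acetyltransferase and deacetylase genes with 0.05, 10 progenitor genes with -0.06 and 15 ERK feedback and immediate early genes with -0.01. Of these, Cd93 (-0.51), Spry1 (-1.07) and Jun (0.79) passed the adjusted p alone. Among 7 genes of MHC class II and later B cells, Cr2 was the member called (median 0.27), H2-Aa, an MHC class II chain, was called lower in the blocked fit (-2.83, adjusted p = 0.0229), and Ms4a1, which encodes CD20, was below the filter. Interferon-stimulated genes had 0 calls of 11 and a median of 1.07, and 1 library carried much of it. Rsad2, the antiviral viperin, was at 45.5 and 22 with K198Q and 627 and 42.9 with K198R, Ifit3 at 5.91 and 12 with K198Q and 157 and 24.3 with K198R and Irf7 at 351 and 292 with K198Q and 758 and 94.1 with K198R. K198R replicate 1 was far above K198R replicate 2 in each of these, and the median was 1.81 between the libraries numbered 1 and 0.41 between those numbered 2. Gbp2, a guanylate-binding protein, was at 77.5 and 98.4 with EV, 583 and 677 with Pax5WT, 242 and 250.4 with K198Q and 695 and 449 with K198R and passed the adjusted p alone (1.18). With the block, 3 of the 11 interferon-stimulated genes were past the adjusted p higher, against 1 without it.

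Markers of cells other than the sorted progenitors were also followed. Stromal genes, which the OP9 feeder would give, were called in 1 of 9 tested (median -0.31). Pdgfrb, a platelet-derived growth factor receptor, was at 785 and 718 with EV, 216 and 260.1 with Pax5WT, 289 and 406 with K198Q and 101 and 63.5 with K198R (log2 fold change -2.08 ± 0.27 (SE), adjusted p = 0.00783). The list summed to 3562 and 4689 with EV, 2995 and 7438 with Pax5WT, 3623 and 5865 with K198Q and 3589 and 4800.2 with K198R, with Fn1, fibronectin, the most abundant at 1503 and 2918 with K198Q and 1756 and 2812 with K198R. Dcn and Lum were at 0 in all 8 libraries. In plasma cell genes 0 of 4 were called (median -0.26), and Jchain, the most abundant at 49783 and 43961 with K198Q and 32232 and 26540.4 with K198R, passed the adjusted p alone (-0.68). Erythroid genes summed to 48.4 and 33.9 with K198Q and 59.9 and 59.4 with K198R, and mast cell and basophil genes to 68.7 and 51.7 and 32.7 and 10.2, with 0 of 2 called in each. Of 4 sex-linked genes 0 were called (median -0.05), and Ddx3y, a Y-linked gene, was at 4319 and 3945 with K198Q and 3975 and 4039 with K198R. The part of these cells in the differences was not tested. Over all 25 lists, 7 of the 363 genes tested were called higher (1.93%, against 0.48% of all genes) and 16 lower (4.41%, against 2.09%). In the blocked fit 7 were called higher and 20 lower, and those past the adjusted p, whatever their fold, went from 23 to 50 higher and from 26 to 54 lower.

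The Pax5WT and EV libraries are not those compared above, and their difference was set beside the comparison for the called genes. Both differences were tested in 1 fit with a shared estimate of the spread of each gene. Calls in the 2 are therefore not independent, and a gene with a small spread is more readily called in both. Over all genes tested, 155 were called higher with Pax5WT than with EV (1.2%) and 32 lower (0.248%). Of the 62 genes higher with K198R than with K198Q, 19 were called higher with Pax5WT (30.6%) and 0 lower, and their median log2 difference of Pax5WT from EV was 1.35. Of the 270 genes lower with K198R, 18 were called lower with Pax5WT (6.67%), among them Cd7, Gpr141, Trbc1, Cd27, Cd2, Il2rb and Pdgfrb. Another 25 of the 270 were called higher with Pax5WT (9.26%), among them H2-Q7 and Lef1. The median of the 270 was -0.55, against 0.00 over all genes. The genes lower with K198R thus included some called on either side of EV with Pax5WT. In the blocked fit 199 genes were called higher with Pax5WT (1.54%) and 102 lower (0.79%), and of the 270, 29 were called higher (10.7%) and 41 lower (15.2%).

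Binding of the same Pax5 forms was measured in Pax5-/- cells by ChIP-seq with an antibody to Pax5, with peaks called for each replicate over its own input. Peaks found in both replicates numbered 7914 for Pax5WT, 2424 for K198Q and 9350 for K198R, and 2375 of the K198Q peaks (98.0%) overlapped a K198R peak, whereas 2354 of the K198R peaks (25.2%) overlapped a K198Q peak. Names inside the second K198R list carry a different replicate number, and it was used as replicate 2. A peak at Blnk serves as an example. The Blnk site lies in an intron, at a fold enrichment over input of 18.2 and 26.5 for Pax5WT, 16.6 and 14.2 for K198Q and 20.4 and 23.1 for K198R. It was thus called with each form, with the lowest enrichment for K198Q. The 101 bases around the K198R summit (GRCm38, minus strand, which is that of the gene, the summit base in capitals) are shown because the gene was called higher with K198R.
Blnk, chr19:40963097-40963197: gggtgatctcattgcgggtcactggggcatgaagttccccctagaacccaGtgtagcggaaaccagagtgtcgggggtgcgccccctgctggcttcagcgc

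A gene was given a peak where 1 fell between 10 kb before its start and its end. With K198R this held for 53.2% of the 62 genes called higher (95% Clopper-Pearson interval 40.1% to 66%), 23% of 269 called lower (18.2% to 28.5%) and 46.1% of all 12863 with a gene model. With K198Q the shares were 25.8% (15.5% to 38.5%), 7.06% (4.31% to 10.8%) and 15.1%. With Pax5WT they were 53.2%, 23.8% and 39.8%. For each form the share of the genes lower with K198R was below that of all genes tested, with intervals that do not meet, while the interval of those higher spans the share of all genes for K198R and lies just above it for K198Q and for Pax5WT (40.1% to 66%). That excess depended on the rule. For peaks in either replicate the intervals spanned the share of all genes (26.6% to 51.9% against 29.5% for K198Q and 53.0% to 77.7% against 59.1% for Pax5WT), as did that of K198Q (14.2% to 36.7% against 14.97%) under a stricter rule of overlap. Within 1 kb of the start the Pax5WT shares were 22.6% (higher), 9.67% (lower) and 27.4% (all), and the K198R shares were 27.4%, 10% and 33.3%. Intervals cover counting error over genes only. Genes are not replicates, so the shares are a description and do not measure the spread between libraries. The called genes are also part of all genes tested. They were less abundant than all genes tested and longer, with a median of 28845 bases for those higher and 29847 for those lower, against 21754.

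**Figure D4:**
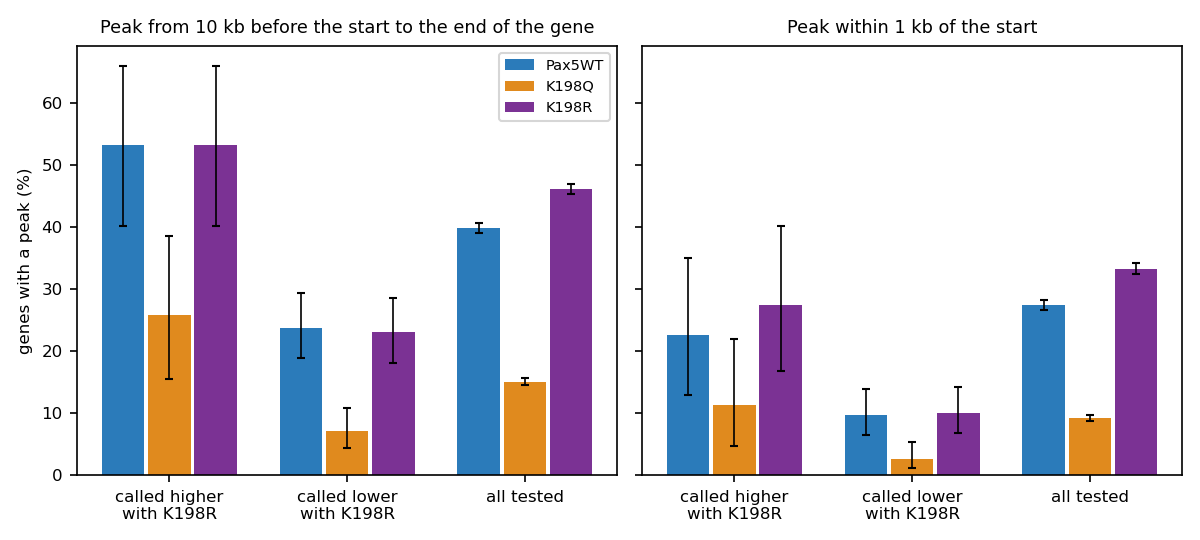
Share of genes with a Pax5 peak found in both replicates (y axis, percent) for genes called higher (62), called lower (269) and all tested (12863), by form of Pax5 (colours), with 95% Clopper-Pearson intervals. The left panel counts peaks from 10 kb before the start to the end of the gene and the right panel within 1 kb of the start. Bars of the genes called lower are below those of all genes tested for each form and window.

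Gene by gene, 16 of the 62 called higher had a peak of both forms, 17 of K198R alone, 0 of K198Q alone and 29 of neither (25.8%, 27.4%, 0% and 46.8%), against 14.9%, 31.2%, 0.171% and 53.7% of all genes. Of the 269 called lower, 19 had both, 43 K198R alone, 0 K198Q alone and 207 neither (7.06%, 16.0%, 0% and 77.0%). Lef1 had K198R peaks upstream of its start and Tox 1 in an intron, while the libraries for both genes were lower with K198R. K198R peaks that overlapped a K198Q peak had a median fold enrichment of 9.34 (2352 peaks), against 5.61 for 6995 others, and 3 peaks on chromosomes or scaffolds whose sequence was not used were left out. A letter search was made for GCGTGAC and GCATGAC, which resemble the core bound by the paired domain, on both strands. These letters lay within the 101 bases at the summit of 6.70% of K198R peaks, 10.3% of K198Q peaks and 7.51% of Pax5WT peaks, against 1.90% of windows of the same length at the starts of all tested genes. The share was 9.69% for K198R peaks that overlapped K198Q and 5.69% for those that did not. Among genes with a K198R peak, the letters lay in a peak for 10 of 33 called higher (30.3%), 11 of 62 called lower (17.7%) and 1023 of all 5936 (17.2%). A match describes the sequence and does not show a bound site.

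Examples of such peaks, chosen after their values were seen, are given for genes of both directions. Atp1b1, a subunit of the sodium pump, was at 129 and 106 with EV, 2055 and 1960.0 with Pax5WT, 1319 and 823 with K198Q and 5436 and 6250.2 with K198R (log2 fold change 2.48 ± 0.22 (SE), adjusted p = 0.00355), and its peak in the gene had a K198Q peak too. Fcrla, an Fc receptor-like protein of B cells, was at 10.9 and 5.13 with K198Q and 62.1 and 89.4 with K198R (log2 fold change 3.14), with the peak 987 bases before its start and no K198Q peak. On the other side, Tyrobp (log2 fold change -2.50) had a peak 961 bases before its start, with a K198Q peak in the second list alone. Gnb5, a G protein subunit, was at 236 and 310.5 with K198Q and 55.6 and 46.9 with K198R (-2.38), with a K198Q peak in the first list alone. Optn, an autophagy receptor, was at 200.4 and 193 with K198Q and 67 and 38.4 with K198R (-1.93), with a K198Q peak too. The same letters were therefore found at genes that moved in opposite directions. Windows of 67 bases are given in the strand of the motif, which is in capitals (GRCm38, minus strand for Optn and plus strand for the others).
Atp1b1, chr1:164441806-164441872: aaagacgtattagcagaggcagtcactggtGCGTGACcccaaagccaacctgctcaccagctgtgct
Fcrla, chr1:170928560-170928626: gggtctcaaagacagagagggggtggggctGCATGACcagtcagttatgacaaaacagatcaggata
Tyrobp, chr7:30412780-30412846: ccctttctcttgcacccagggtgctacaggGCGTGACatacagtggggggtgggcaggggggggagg
Gnb5, chr9:75328220-75328286: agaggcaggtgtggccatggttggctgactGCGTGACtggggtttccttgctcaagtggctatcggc
Optn, chr2:5064089-5064155: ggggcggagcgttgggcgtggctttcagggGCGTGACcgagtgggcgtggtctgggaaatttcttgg

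The called genes were then read in other cells of the series, as descriptions without a test. By the paper, these cells came from another mouse strain than the Pax5-/- cells. They were taken from bone marrow, whereas the methods give fetal liver for the Pax5-/- cells. The part of strain and source in the values below was not tested. In Sirt7-/- pro-B cells, which keep their own Pax5, K198R was compared with EV, 2 libraries each. There the 56 matched genes called higher had a median log2 difference of 0.19, the 183 matched genes called lower -0.07 and all 12087 matched genes 0.00. A rise of at least 1 was seen in 10 of the 56 (17.9%), against 4.08% of all genes, and a fall in 7 (12.5%), against 3.84%. Of the 183, 23 rose by at least 1 (12.6%) and 39 fell (21.3%). Both groups thus held more large differences in either direction than all genes did, and they were also less abundant in the Pax5-/- cells than all genes. Tox was higher by 1.64 there, opposite to the Pax5-/- cells. Bfsp2 was higher by 1.96 and Pogk lower, at a log2 difference of -2.31, in the same direction as in Pax5-/- cells.

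In cells sorted from the bone marrow of wild-type mice, pre-B cells were set against pro-B cells, 2 libraries each. The 50 matched genes called higher had a median log2 difference of 0.48, the 191 called lower -0.68 and all 10822 genes -0.04. Of the 50, 21 were higher in pre-B cells by at least 1 (42%, against 8.27% of all genes) and 13 lower (26%, against 17.2%). Of the 191, 84 were lower by at least 1 (44%) and 28 higher (14.7%). Cd55 (2.90), Cr2 (3.45), Siglecg (1.49), Bank1 (3.42) and Ikzf3 (1.57) were higher in pre-B cells and with K198R. Thy1 (-5.66), Tox (-5.21), Cd7 (-5.48) and Lef1 (-2.05) were lower in both. Klf2 (2.52), H2-Q7 (1.58) and Cd2 (2.84) were lower with K198R but higher in pre-B cells, and Tmem255a (-3.71) and Ighg2b (-4.45) were higher with K198R but lower in pre-B cells.

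**Figure D5:**
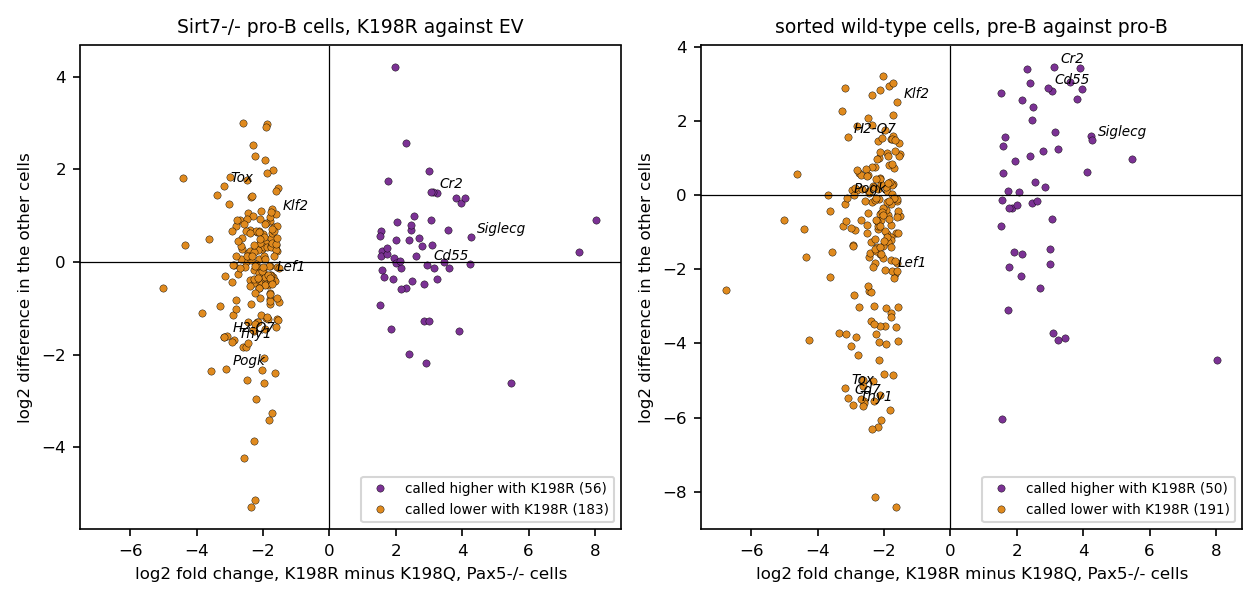
Log2 difference in other cells (y axis) against the log2 fold change of K198R minus K198Q in Pax5-/- cells (x axis) for called genes, higher in purple and lower in orange, in Sirt7-/- pro-B cells with K198R against EV (left) and in sorted wild-type pre-B against pro-B cells (right). Points of both colours lie on both sides of 0 in each panel, and in the right panel the orange points reach the lowest values.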

How the data were processed

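RNA was sequenced from 8 libraries of Pax5-/- cells. The authors quantified reads with Salmon on mm10, imported them with Tximeta and deposited counts per gene normalized by DESeq2 (a signal of scaled counts, not whole reads), with library sums from 28865461 to 30520853. Raw depth was not given in the sources used here. The log2 of each value plus 1 was taken, and limma 3.58.1 (R 4.3.3) was run on all 4 groups together with a variance trend and Benjamini-Hochberg adjustment over 12909 genes. With 2 libraries against 2, an exact permutation test of 1 gene cannot give a p below 0.33. The authors aligned ChIP-seq reads with Bowtie2 and called peaks with MACS2. The deposited peak lists give fold enrichment over input (a ratio) and −log10 q. Peaks had to overlap by at least 1 base between replicates. Gene models were GENCODE M21. The members and gene lists were chosen with earlier results of these data known. Genes named are Pax5, tested list members and, among called genes without overlap, with at least 100 counts on average in the higher group and an established symbol, the 12 largest changes each way. Fcrla, Atp1b1, Gnb5, Optn, the list members below the filter and the genes of the closing paragraph fall outside it. Some genes that the rule names are not reported here. The fit was tested on simulated counts drawn independently for each library. That test does not cover the shared deviation of same-numbered libraries described below. Other tables were normalized separately, and differences in them were only described. The methods say that replicates were made on different days but not that a number marks a day. Libraries of the same number deviated together in every pair of groups (correlations of 0.28 to 0.43 across 12909 genes), so values with the replicate number as a block are given beside the calls they change. Alternatives tried were the pseudocount, filter, scaling, voom weights, variance trend, replicate block, libraries used and each library left out.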

Additional observations from a re-analysis of the deposited data

How the results depend on the processing

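Under pseudocounts of 0.5 and 10, filters, voom weights, no variance trend and other scalings, the counts of calls stayed within 1.5 times of 62 higher and 270 lower, and between 40 of the 45 named genes (no variance trend) and all 45 (equal upper quartile) kept their call. Limiting the fit to the 4 K198Q and K198R libraries gave 27 higher and 44 lower, with 3 list members lower in place of 16 and 21 of the 45 named genes still called, which is a fit with fewer samples. Requiring a log2 fold change of at least 1 gave 105 higher and 356 lower, and no minimum gave 195 higher and 475 lower. Leaving out single libraries gave 14 to 53 genes higher, 11 to 448 lower, 2 to 8 list members higher, 0 to 26 lower and 0.89 to 1.24 for Pax5. With the replicate number as a block, 94 genes were higher and 397 lower, and all 45 named genes kept their call. Peak shares moved with the rule. K198R peaks within 1 kb were at 27.4% of genes called higher and 10.0% of those lower (all 33.3%), K198R peaks at genes called lower were 37.9% for peaks in either replicate (all genes tested 64.5%) and 28.6% for the first list alone (all 55.0%), and K198Q shares were 11.3% (higher) and 2.60% (lower) within 1 kb (all 9.19%) and 38.7% and 15.2% for either replicate (all 29.5%). With a pseudocount of 10 the genes called lower had a median of -0.61 between sorted pre-B and pro-B cells. The cause of these shifts was not tested, and 2 libraries per group limit the precision throughout.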

Other observations

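The following are single abundant genes among those called, chosen after their values were seen. Igf2, insulin-like growth factor 2, was the most abundant gene called lower. Igf2 was at 13935 and 19022 with EV, 10066 and 19466 with Pax5WT, 21354 and 32252 with K198Q and 5004 and 3607 with K198R (log2 fold change -2.63 ± 0.34 (SE), adjusted p = 0.00783). Gfra1, the coreceptor for glial cell line-derived neurotrophic factor, was at 7073 and 9224 with K198Q and 2775 and 2611 with K198R (log2 fold change -1.59 ± 0.14 (SE), adjusted p = 0.00355). Rasgrp3, an activator of RAS downstream of antigen receptors, was at 1939 and 2077 with EV, 851 and 1166 with Pax5WT, 1581 and 1623 with K198Q and 329.7 and 243 with K198R (log2 fold change -2.50 ± 0.19 (SE), adjusted p = 0.00247). For Igf2 the K198Q libraries were above EV and Pax5WT, and for Rasgrp3 K198Q lay between EV and Pax5WT. Pdcd1, which encodes PD-1, was at 3176 and 5201 with EV, 2002 and 1645 with Pax5WT, 2584 and 2734 with K198Q and 880.2 and 633 with K198R (log2 fold change -1.83 ± 0.24 (SE), adjusted p = 0.00856), and Il18r1, a receptor chain for IL-18, was at 5778 and 3941 with EV, 1509.6 and 1209 with Pax5WT, 2742 and 2090.1 with K198Q and 866 and 317 with K198R (log2 fold change -2.19 ± 0.42 (SE), adjusted p = 0.0285). Higher with K198R were Fcgr2b, the inhibitory Fc receptor of B cells, at 1432 and 1333 with EV, 1331 and 1238 with Pax5WT, 1147 and 1339.5 with K198Q and 4164 and 3297 with K198R (log2 fold change 1.58 ± 0.14 (SE), adjusted p = 0.00355), and Lta, lymphotoxin alpha, at 1724 and 1339.8 with K198Q and 4517 and 4234 with K198R (log2 fold change 1.52 ± 0.14 (SE), adjusted p = 0.00362). For Fcgr2b the EV, Pax5WT and K198Q libraries lay together. Actn1, an actin crosslinker, was at 1254 and 1449.5 with EV, 3557 and 3847 with Pax5WT, 2967 and 2683 with K198Q and 1068 and 625 with K198R (log2 fold change -1.79 ± 0.23 (SE), adjusted p = 0.00764), and Zyx, zyxin of focal adhesions, was at 3058 and 2369.7 with EV, 1515 and 1381 with Pax5WT, 2097 and 1905 with K198Q and 702 and 354 with K198R (adjusted p = 0.0102). Actn1 was high with Pax5WT and K198Q, and for Zyx K198Q lay between EV and Pax5WT.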
